A study of Homo sapiens with 60 samples.

Results

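The brush border genes described here are 10 genes of the absorptive cell of the intestine: VIL1, KRT20, CDX2, ANPEP, DPP4, ANXA13, SLC6A20, CDHR2, CDHR5 and MYO1A. They were chosen by symbol, all 10 were found among the 60675 genes of the count table, and 9 of them were among the 16767 genes with enough counts to test. The exception was CDHR2, with 0 to 6 counts per library. HT29, an established human colorectal adenocarcinoma line, was treated for 24 h and its messenger RNA was sequenced in 60 libraries of 21 groups. The groups were a vehicle of 0.1% DMSO (the series text gives 2%), the phosphoinositide 3-kinase (PI3K) inhibitors wortmannin and LY294002, each at 10 µM, and water extracts of 6 medicinal herbs, each at 500, 100 and 20 µg/mL. The extracts are called here Poria (from Poria cocos), Atractylodis (Atractylodis Rhizoma), Glycyrrhizae (Glycyrrhizae Radix, licorice), Ginseng (Panax ginseng), Angelicae (Angelicae Gigantis Radix) and Paeoniae (Paeoniae Radix). Groups held 3 libraries, except for 2 in each Paeoniae group.

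The brush border is the carpet of microvilli on the face of an enterocyte that meets the gut lumen. Each microvillus is a bundle of actin filaments held together by villin and other bundlers, tied to its membrane by class I myosins, and linked at its tip to its neighbours by protocadherins. Peptidases, sugar-cleaving enzymes and nutrient carriers sit in that membrane, and the transcription factor CDX2 is known as a regulator of many genes of this program. HT29 cells grown in ordinary medium are mostly undifferentiated and can take on enterocyte or goblet cell features.

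Levels are given in CPM, each library's counts put on the same total after trimmed-mean (TMM) scaling, as group mean ± SD. A call, and the words rose, fell, higher and lower in counts of genes, stand for an adjusted p under 0.05 in edgeR's quasi-likelihood test with Benjamini-Hochberg adjustment over 16767 genes. Fold changes are on the log2 scale with their standard error (SE). Nothing in the labels ties replicates to separate cultures, so these p-values measure the spread between these libraries. Library totals ran from 20431980 to 35477712, and genes encoded in mitochondria took between 7.56% and 9.96% of counts in the group means, with vehicle highest at 9.96 ± 1.38% (SD, n = 3). Sample codes start with A1 (vehicle) or 1 (inhibitors), and extracts come in pairs with the same start: Poria with Atractylodis, Glycyrrhizae with Ginseng, and Angelicae with Paeoniae. What this start means is not stated, and the titles of all 60 samples carry the same batch letter. A comparison of an inhibitor or an extract with vehicle therefore also compares code starts, and treatment and code start cannot be told apart there. A comparison of 500 with 20 µg/mL, or of the inhibitors with each other, stays within a start.

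Most simple epithelium markers were high, and only part of the enterocyte program was measured. All 9 simple epithelium genes were tested, with KRT8 at 6660 CPM, KRT18 at 3970 CPM and EPCAM at 558 CPM over all libraries. In the same list KRT7 (1.69 CPM) and the cadherin gene CDH17 (4.59 CPM) were low. Of 37 absorptive enzymes and transporters, 14 passed the count minimum. The lactase gene LCT had at most 2 counts in a library and the fatty acid binding protein gene FABP2 at most 4, so both were near 0. Others of that list were not, such as SLC26A6 at 16 CPM and SLC5A1 at 14.2 CPM. Of 12 markers of fibroblasts, leukocytes and endothelium, 5 passed, with CD68 at 6.75 CPM and CD14 at 3.59 CPM. PTPRC, the pan-leukocyte marker, had at most 3 counts.

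Per kilobase of exon, which lets genes be compared, the members spread over more than 3 orders of size. KRT20 stood at 168 CPM per kb, VIL1 at 25.7, DPP4 at 8.48, ANXA13 at 6.33 and CDHR5 at 4.5. SLC6A20 (1.27) and CDX2 (1.23) came next, followed by MYO1A at 0.199, ANPEP at 0.0566 and CDHR2 at 0.0123 CPM per kb. In counts, ANPEP had 3 to 16 and MYO1A 10 to 38 per library, so that their tests could show large changes only.

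Promoters are shown for the members that changed in at least 1 comparison and have 1 start in RefSeq, so that a reader can see the letters upstream of genes that moved. They are the 250 bases before the RefSeq start (GRCh38.p14, read 5′ to 3′ on the gene's strand, which is the minus strand for all 4). The intervals are chr17:40885243-40885492 for KRT20, chr13:27969316-27969565 for CDX2, chr3:45796537-45796786 for SLC6A20 and chr2:162074216-162074465 for DPP4. Capitals mark TTTAT, the core letters of the CDX motif, and its reverse complement ATAAA, which also lies within the TATA box letters TATAAA.
KRT20: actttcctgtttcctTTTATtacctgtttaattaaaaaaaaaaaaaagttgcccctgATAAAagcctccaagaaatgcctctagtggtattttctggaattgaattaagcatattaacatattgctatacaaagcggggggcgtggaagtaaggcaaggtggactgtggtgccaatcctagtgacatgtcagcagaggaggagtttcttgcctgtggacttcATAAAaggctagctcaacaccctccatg
CDX2: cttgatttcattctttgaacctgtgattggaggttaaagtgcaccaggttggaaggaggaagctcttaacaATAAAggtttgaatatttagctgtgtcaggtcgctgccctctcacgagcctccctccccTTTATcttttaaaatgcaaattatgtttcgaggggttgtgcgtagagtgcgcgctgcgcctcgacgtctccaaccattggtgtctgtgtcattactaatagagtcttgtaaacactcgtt
SLC6A20: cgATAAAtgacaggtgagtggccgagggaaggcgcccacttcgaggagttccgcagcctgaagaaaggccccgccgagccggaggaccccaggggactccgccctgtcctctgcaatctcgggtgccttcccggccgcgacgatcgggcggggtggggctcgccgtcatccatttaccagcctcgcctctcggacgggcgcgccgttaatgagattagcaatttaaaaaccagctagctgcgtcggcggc
DPP4: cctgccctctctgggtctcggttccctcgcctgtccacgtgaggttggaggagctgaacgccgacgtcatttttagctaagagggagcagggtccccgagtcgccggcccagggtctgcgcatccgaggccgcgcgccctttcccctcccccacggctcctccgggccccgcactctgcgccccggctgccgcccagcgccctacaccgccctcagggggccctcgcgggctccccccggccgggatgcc
KRT20 had 3 matches, CDX2 2, SLC6A20 1 and DPP4 none. Of 35116 RefSeq windows of this length, 32.7% held TTTAT on either strand, and 5 of the 10 windows of the 7 members with an entry did. The HNF1 letters GTTAAT lay in 4 of the 10 windows, KRT20 and SLC6A20 among them, against 6.23% of all windows. The CDX2 window also held 1 match to the GATA letters AGATAA (9.17% of all windows), which overlaps a TTTAT match, and 1 to the FOXO letters TGTTTAC (2.98%), on the reverse strand 13 bases before the start. The HNF4 letters CAAAGTCCA (0.325% of all windows) and TATAAA (10.7%) each lay in 1 member window, both of MYO1A, where TATAAA overlaps a TTTAT match. Matches describe letters and not binding. VIL1, ANXA13 and CDHR5 had no entry.

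**Figure D1:**
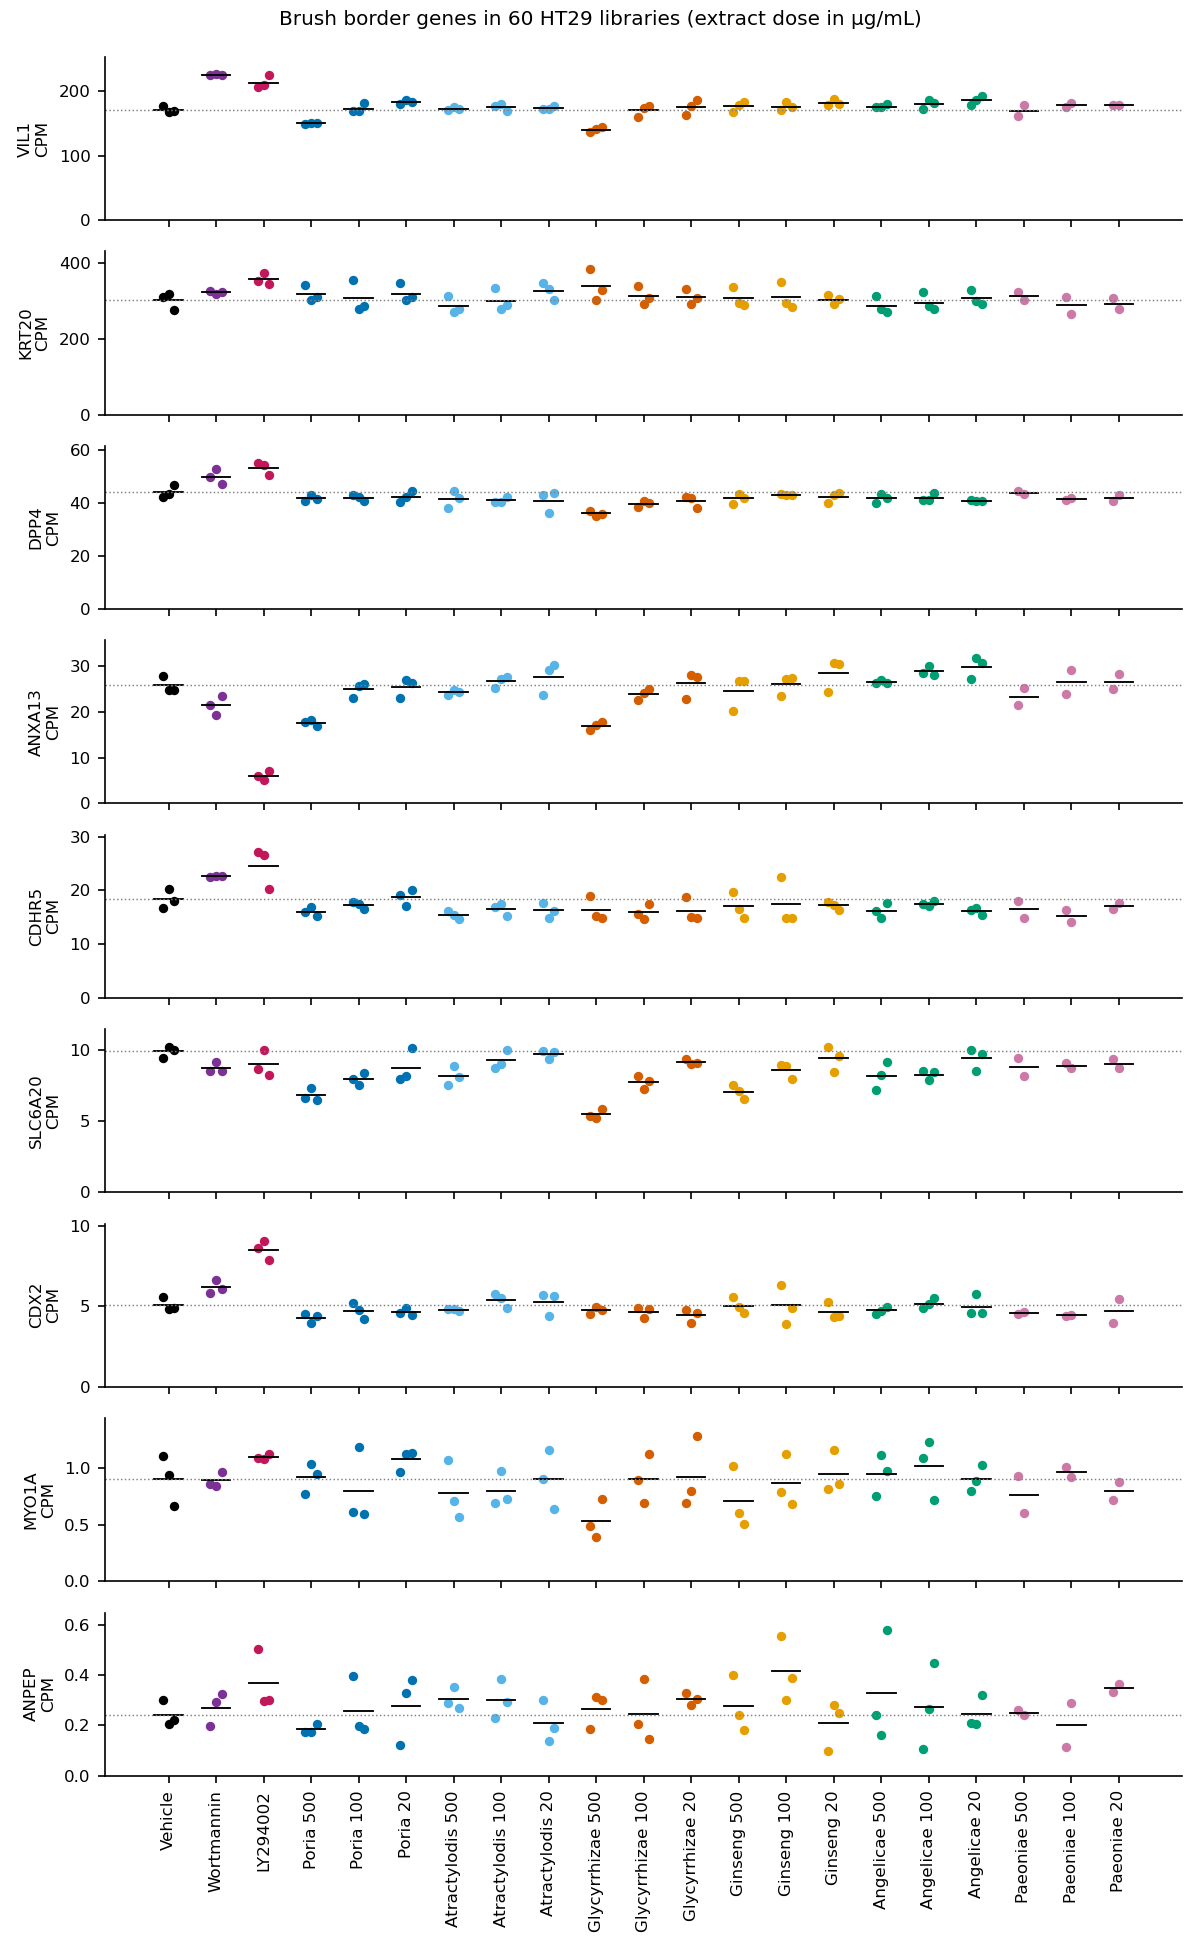
Level of 9 brush border genes in each of the 60 libraries (points, CPM on linear axes from 0) by group (horizontal axis, extract dose in µg/mL), with group means (bars) and the vehicle mean (dotted line). ANXA13 is lowest with LY294002 at 6.06 CPM, and VIL1 is highest with both inhibitors. VIL1, ANXA13 and SLC6A20 are low with Poria and Glycyrrhizae at 500 µg/mL, and SLC6A20 also with Ginseng at 500 µg/mL.

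The plot of levels by library shows the whole set at once: most members kept close to the vehicle mean in most extract groups, and the inhibitors and the highest dose of a pair of extracts stood apart. The highest group mean over the lowest was 4.93-fold for ANXA13, 2.24-fold for ANPEP and 2.06-fold for MYO1A, the latter 2 on few counts, 1.99-fold for CDX2, 1.81-fold for SLC6A20, 1.61-fold for VIL1 and CDHR5, 1.47-fold for DPP4 and 1.25-fold for KRT20.

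LY294002, a reversible inhibitor of PI3K that is also known to inhibit other kinases, gave the most member calls of the 33 comparisons made. Of the 9 members tested, 5 were higher (VIL1, KRT20, CDX2, DPP4 and CDHR5) and 1 was lower (ANXA13). Among all genes, 18.7% were higher and 20.5% lower, 39.2% in either direction. The median member fold change was 0.27 against 0.01 over all genes. In bulk RNA, fewer cells that express a gene and less RNA of it per cell cannot be told apart.

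ANXA13, a myristoylated annexin of the epithelial membrane, moved against the rest (ENSG00000104537, chr8:123680794-123737407, minus strand). Its vehicle libraries held 27.8, 24.7 and 24.8 CPM, and the LY294002 libraries 6.07, 5.06 and 7.05 CPM. The groups lie far apart. It fell by 2.09 ± 0.12 on the log2 scale, to 0.235 of the vehicle level (adjusted p = 6.75e-19), and lay between -2.21 and -1.97 with each library left out in turn.

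CDX2, the homeobox factor of intestinal identity, rose most among the members that were higher (ENSG00000165556, chr13:27962137-27971139, minus strand). The vehicle libraries held 5.55, 4.85 and 4.91 CPM and the LY294002 libraries 8.63, 9.04 and 7.88 CPM. All treated libraries lay above all vehicle libraries, a log2 difference of 0.74 ± 0.12 (adjusted p = 1.17e-06). The cadherin of the microvillus tip, CDHR5 (ENSG00000099834, chr11:616565-626078, minus strand), stood at 16.8, 20.3 and 18 CPM in vehicle and at 27.1, 26.5 and 20.2 CPM with LY294002. Its groups overlapped slightly, since LY294002 replicate 3 was just under vehicle replicate 2, and it rose by 0.42 ± 0.11 (adjusted p = 0.00278).

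VIL1 encodes villin, the actin bundler that marks the microvillus core (ENSG00000127831, chr2:218419092-218453295, plus strand). With LY294002 its libraries held 206, 209 and 225 CPM, against 177, 168 and 169 CPM in vehicle. The groups did not overlap, and the rise of 0.32 ± 0.04 was small but precise (adjusted p = 5.47e-08). DPP4, the membrane dipeptidyl peptidase that trims proline-containing peptides (ENSG00000197635, chr2:161992241-162074542, minus strand), went from 42.1, 43.2 and 46.6 CPM to 54.9, 54.1 and 50.6 CPM, again without overlap (0.27 ± 0.05, adjusted p = 6.6e-05). VIL1 and DPP4 each overlap a gene on the other strand, USP37 and an antisense RNA; the strand setting of the counting is not given in the sources used here.

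KRT20, the type I keratin of the differentiated upper crypt (ENSG00000171431, chr17:40875941-40885227, minus strand), was the weakest of the 6 calls. Vehicle libraries held 310, 319 and 276 CPM and LY294002 libraries 354, 375 and 346 CPM, with no overlap. The rise was 0.25 ± 0.09 (adjusted p = 0.0252). It did not pass the threshold without the third vehicle library (0.19, adjusted p = 0.149) or without the second LY294002 library (0.22, adjusted p = 0.0839).

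The other 3 tested members gave no call with LY294002. SLC6A20, a proline and imino acid carrier, was at 8.98 ± 0.948 CPM against 9.87 ± 0.394 CPM in vehicle (SD, n = 3 each), a difference of -0.14 with a 95% interval from -0.32 to 0.04. MYO1A, the brush border myosin I that ties the bundle to the membrane (ENSG00000166866, chr12:57028517-57051198, minus strand), gave 0.27 (-0.29 to 0.83). It overlaps TAC3 on the same strand. ANPEP, the membrane aminopeptidase N gene (ENSG00000166825, chr15:89784889-89815401, minus strand), gave 0.59 (-0.32 to 1.5). These 2 intervals are wide, and the counts are few. CDHR2, the protocadherin that pairs with CDHR5 at the tip (ENSG00000074276, chr5:176542511-176595974, plus strand), had no count in 9 of the 60 libraries and was not tested.

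Wortmannin, a covalent inhibitor of PI3K, gave calls for 2 of the 9 members, VIL1 and DPP4, both higher, where 6.26% of all genes were higher and 7.46% lower (13.7% in either direction). VIL1 stood at 225, 226 and 225 CPM in the wortmannin libraries, all above vehicle, a rise of 0.39 ± 0.04 (adjusted p = 2.09e-09). DPP4 held 49.8, 52.7 and 47.1 CPM and rose by 0.18 ± 0.06 (adjusted p = 0.019). That call was lost without the first or second vehicle library (0.15 and 0.17) without the first or second wortmannin library (0.18 and 0.14), with no filter on low counts (0.19, adjusted p = 0.058) and with only the libraries compared (0.19, adjusted p = 0.0797).

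Replicates with the same number deviated together in this comparison. With the replicate number as a block over all 60 libraries, 4 members passed. That block gives each number the same shift in all 21 groups, so it is not a pairing of the wortmannin and vehicle libraries alone. The added members were CDHR5, at 22.5, 22.7 and 22.6 CPM, with 0.29 (adjusted p = 0.0434), and ANXA13, at 21.5, 19.3 and 23.5 CPM, with -0.27 (adjusted p = 0.014). Without the block their adjusted p was 0.0821 and 0.0743. In each, all wortmannin libraries lay on one side of all vehicle libraries. CDX2 held 5.81, 6.64 and 6.06 CPM, also above every vehicle library, but gave no call (0.28 ± 0.12, adjusted p = 0.129). How many of all genes had groups this far apart was not counted. In edgeR without the block, 4378 of 16767 genes had an unadjusted p under 0.05 for wortmannin against vehicle.

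Between the inhibitors, 2 of the 9 members differed: ANXA13 was higher and CDX2 lower with wortmannin, where 12.7% of all genes were higher and 9.49% lower (22.2% in either direction). For ANXA13 the difference was 1.82 ± 0.12 (adjusted p = 3.75e-16) and for CDX2 -0.46 ± 0.11 (adjusted p = 0.0018), in both without overlap of libraries. VIL1 gave no call here, with an interval from -0.01 to 0.16, and neither did DPP4 (-0.2 to 0.02). Each inhibitor was used at 1 dose, so potency was not compared.

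**Figure D2:**
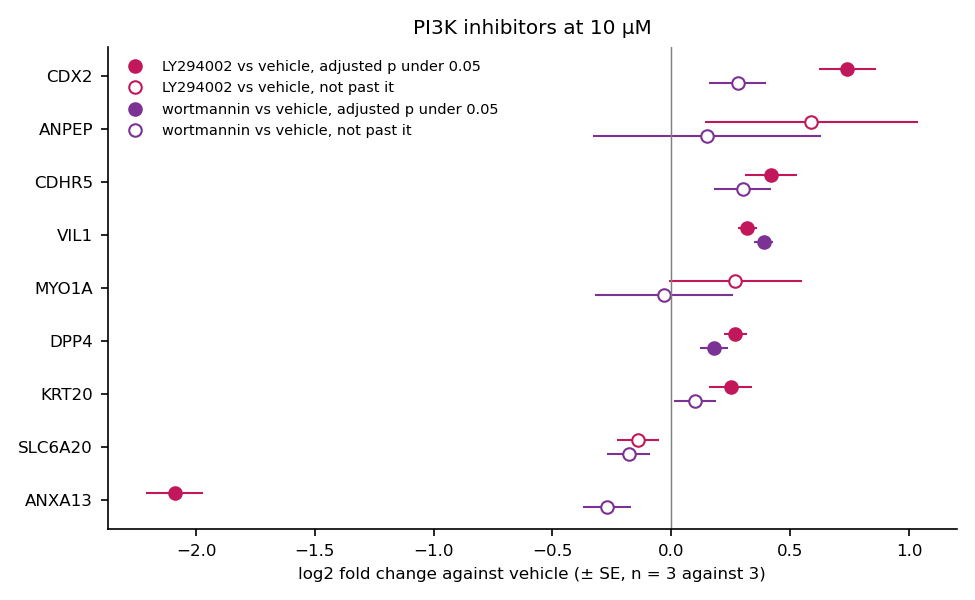
Log2 fold change against vehicle (horizontal axis, points with SE bars, n = 3 against 3 libraries) of the 9 members tested, for LY294002 and wortmannin at 10 µM, with filled points past the threshold. ANXA13 lies at -2.09 with LY294002 and -0.27 with wortmannin, while VIL1 lies at 0.32 and 0.39.

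As the plot of fold changes by inhibitor shows, VIL1 sat at similar positive values with both compounds, whereas ANXA13 and CDX2 were further from 0 with LY294002. Both comparisons use the same 3 vehicle libraries.

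At 500 µg/mL, 2 of the 6 extracts, Poria and Glycyrrhizae, gave lower levels of ANXA13, VIL1 and SLC6A20. Against the 20 µg/mL dose of the same extract, 3 of the 9 members tested fell with Poria, where 2.30% of all genes fell and 3.21% rose (5.51% in either direction). With Glycyrrhizae, 3 of 9 fell, where 2.02% of all genes fell and 1.83% rose (3.85% in either direction). No member rose, and the median member fold change was -0.24 with Poria and -0.19 with Glycyrrhizae, against 0 and -0.01 over all genes.

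ANXA13 held 17.8, 18.2 and 16.9 CPM with Poria at 500 µg/mL and 23, 26.9 and 26.3 CPM at 20 µg/mL. With Glycyrrhizae it held 16, 17.2 and 17.8 CPM at 500 µg/mL and 22.7, 28 and 27.7 CPM at 20 µg/mL. In both extracts every library at the high dose lay below every library at the low dose. It fell by 0.53 ± 0.10 with Poria (adjusted p = 0.000868) and by 0.62 ± 0.10 with Glycyrrhizae (adjusted p = 0.000146).

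With Poria, the high-dose libraries held 149, 150 and 150 CPM of VIL1, and the low-dose libraries 180, 186 and 184 CPM. For Glycyrrhizae the values were 136, 141 and 144 CPM at the high dose and 163, 177 and 186 CPM at the low dose. Again no library overlapped. It fell by 0.29 ± 0.04 with Poria (adjusted p = 9.85e-06) and by 0.32 ± 0.04 with Glycyrrhizae (adjusted p = 3.21e-06), so that the high dose held 0.817 and 0.799 of the low-dose level.

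SLC6A20 carries proline and related imino acids across the apical membrane (ENSG00000163817, chr3:45755450-45796535, minus strand). With Glycyrrhizae it held 5.35, 5.21 and 5.82 CPM at 500 µg/mL and 9.36, 9.02 and 9.06 CPM at 20 µg/mL. It fell by 0.74 ± 0.09 (adjusted p = 1e-06), to 0.597 of the low-dose level, without overlap. With Poria it held 6.6, 7.33 and 6.49 CPM against 7.97, 8.17 and 10.1 CPM and fell by 0.36 ± 0.09 (adjusted p = 0.012). The Poria call was lost without the first (-0.34) or the third (-0.33) library at 500 µg/mL, without the third at 20 µg/mL (-0.25, adjusted p = 0.176) and with only the libraries compared (-0.36, adjusted p = 0.162).

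Against vehicle, Poria at 500 µg/mL gave the same 3 calls, all lower, where 4.60% of all genes were higher, 2.89% lower and 7.49% called. VIL1 differed by -0.20 ± 0.04 (adjusted p = 0.00266; 0.0638 with only the libraries compared), ANXA13 by -0.55 ± 0.11 (adjusted p = 0.000473) and SLC6A20 by -0.54 ± 0.09 (adjusted p = 8.02e-05). Glycyrrhizae gave 4 lower members, where 3.65% of all genes were higher, 3.26% lower and 6.91% called: VIL1 (-0.29), ANXA13 (-0.60), SLC6A20 (-0.86 ± 0.09, adjusted p = 1.48e-08) and DPP4. DPP4 held 37.1, 35.2 and 35.8 CPM, below every vehicle library, a difference of -0.29 ± 0.06 (adjusted p = 0.000627). Ginseng at 500 µg/mL gave 1 lower member, SLC6A20, at 7.53, 7.1 and 6.53 CPM (-0.49 ± 0.09, adjusted p = 0.0119), where 0.179% of all genes were lower, 0.173% higher and 0.352% called. That last call was lost without the second or the third vehicle library (-0.46 and -0.48) or the third Ginseng library (-0.44) and with only the libraries compared (-0.49, adjusted p = 0.172). DESeq2 gave no adjusted p for it. The count over all genes in that comparison was as unsteady, 59 genes that became 3 to 824 under the other settings and 0 to 241 with a library left out.

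In the other 15 comparisons of an extract with vehicle no member passed edgeR's threshold. Of all genes, 0.0417% and 0% passed with Poria at 100 and 20 µg/mL, 0.250%, 0.364% and 0.137% with Atractylodis at 500, 100 and 20 µg/mL, and 0.340% and 0.370% with Glycyrrhizae at 100 and 20 µg/mL. Ginseng gave 0% at both lower doses, Angelicae 0.161%, 0.00596% and 0.173%, and Paeoniae 0.161%, 0.0477% and 0%, each from the highest dose down. These small shares depended on the setting: with no filter on low counts the same 15 comparisons gave 98 to 1141 genes, and with a library left out 0 to 380. At an unadjusted p under 0.05 in edgeR there were 14 of 135 member tests (10.4%), and DESeq2 called 0. Of all 16767 genes, 834 (Poria at 20 µg/mL) to 3067 (Angelicae at 20 µg/mL) had such a p in these comparisons. With the replicate block, which the pairing check did not back there, SLC6A20 passed for Glycyrrhizae at 100 µg/mL (-0.35, adjusted p = 0.0425). In the other 4 comparisons of 500 with 20 µg/mL no member passed either. Of all genes, 0% did with Atractylodis and Ginseng, 0.0179% with Angelicae and 0.0358% with Paeoniae. Of 36 member tests there, 5 (13.9%) had an unadjusted p under 0.05 in edgeR, and DESeq2 called 0. Among 16767 genes, 499 (Angelicae) to 857 (Atractylodis) had such a p in these comparisons. With no filter KRT20 passed for Atractylodis (-0.19, adjusted p = 0.0492; 0.969 with the filter). All 18 extract comparisons use the same 3 vehicle libraries, so their directions are not independent. SLC6A20 and DPP4 were below the vehicle mean in 18 of 18, CDHR5 in 17, CDX2 in 15 and MYO1A in 11. VIL1 and ANPEP were above it in 14 of 18, KRT20 in 12 and ANXA13 in 10. How many of all genes had such runs was not counted.

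Within extracts, where vehicle plays no part, the mean of SLC6A20 was lower at each step from 20 to 100 to 500 µg/mL in 6 of 6 extracts. Its means went from 9.14 to 7.75 to 5.46 CPM with Glycyrrhizae, from 9.39 to 8.59 to 7.05 CPM with Ginseng and from 9.02 to 8.88 to 8.81 CPM with Paeoniae. The last of these differ by less than the spread between libraries. ANXA13 and VIL1 were lower at 500 than at 20 µg/mL in 6 of 6 extracts, though only Poria and Glycyrrhizae gave calls. For VIL1 with Atractylodis the means, 172 ± 2.2 and 174 ± 3.27 CPM, differed by less than the spread. The same held in 5 of 6 extracts for CDHR5 and MYO1A and in 4 for CDX2 and CDHR2. KRT20, DPP4 and ANPEP were lower at 500 µg/mL in 3 of 6. How many of all genes had such runs was not counted.

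**Figure D3:**
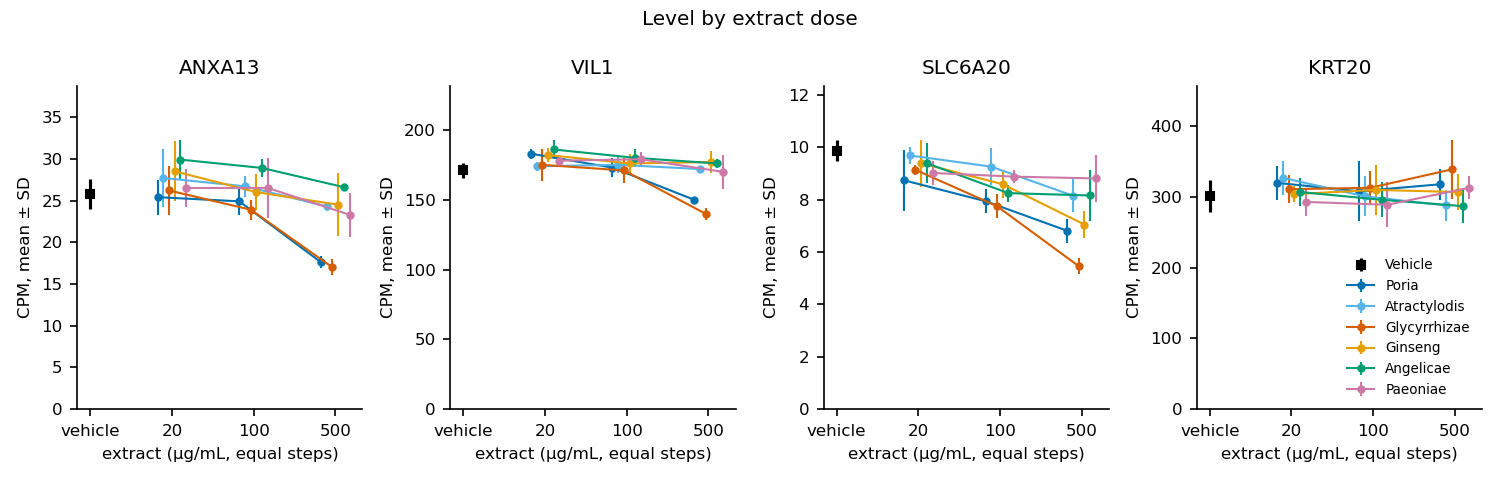
Level (vertical axis, CPM from 0, mean ± SD, n = 3 libraries, 2 for Paeoniae) of ANXA13, VIL1, SLC6A20 and KRT20 in vehicle and at 20, 100 and 500 µg/mL of each extract (horizontal axis in equal steps, points shifted sideways for clarity). ANXA13, VIL1 and SLC6A20 drop at 500 µg/mL of Poria and Glycyrrhizae, to 17.6 and 17 CPM for ANXA13, while KRT20 does not. SLC6A20 also goes down with Ginseng, to 7.05 CPM at 500 µg/mL.

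In the plot of levels by dose, the means of ANXA13 and VIL1 for Poria and Glycyrrhizae lie near the other extracts at 100 µg/mL (24.9 and 23.9 CPM for ANXA13) and separate from them at 500 µg/mL. KRT20 gave no call with either extract. It was at 318 ± 21.6 CPM with Poria and 339 ± 41.8 CPM with Glycyrrhizae at 500 µg/mL (SD, n = 3 each), against 320 and 311 CPM at 20 µg/mL. The intervals of its difference ran from -0.19 to 0.17 and from -0.06 to 0.31. CDX2 gave intervals from -0.37 to 0.14 with Poria and from -0.16 to 0.35 with Glycyrrhizae. MYO1A was at 0.487, 0.392 and 0.727 CPM with Glycyrrhizae at 500 µg/mL and 0.695, 0.798 and 1.29 CPM at 20 µg/mL, a difference of -0.82 ± 0.31 that missed the threshold (adjusted p = 0.136) on 10 to 38 counts per library.

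Extracts of the same code set were compared at the same dose of 500 µg/mL. Poria against Atractylodis gave 2 lower members of 9, where 0.751% of all genes were lower, 1.10% higher and 1.85% called: VIL1 (-0.20 ± 0.04, adjusted p = 0.00387; 0.0738 with only the libraries compared) and ANXA13 (-0.46 ± 0.10, adjusted p = 0.00777). Atractylodis libraries held 171, 175 and 172 CPM of VIL1 and 23.7, 24.8 and 24.3 CPM of ANXA13, all above the Poria libraries. The ANXA13 call was lost without the third Poria library (-0.43, adjusted p = 0.0533).

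Glycyrrhizae against Ginseng gave 4 lower members of 9, where 1.35% of all genes were lower, 1.13% higher and 2.48% called. VIL1 differed by -0.33 ± 0.04 (adjusted p = 1.46e-06) and ANXA13 by -0.53 ± 0.11 (adjusted p = 0.00164). SLC6A20 (-0.37 ± 0.10, adjusted p = 0.0233) and DPP4 (-0.21 ± 0.06, adjusted p = 0.0274) were less firm. SLC6A20 lost its call without the first or second library of either extract (-0.32 to -0.37), and DPP4 lost it without any Glycyrrhizae library or the second or the third Ginseng library (-0.18 to -0.23). Neither passed with no filter (adjusted p = 0.0768 and 0.0714) or with only the libraries compared (0.143 and 0.11). Angelicae against Paeoniae gave 0 calls in edgeR, 0 members at an unadjusted p under 0.05 and 0 in DESeq2. Of all genes, 0.0179% were called there, and 599 of 16767 had an unadjusted p under 0.05 in edgeR.

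The dose effect itself, 500 against 20 µg/mL, was also compared between the extracts of a set. VIL1 fell more with Poria than with Atractylodis, a difference of -0.28 ± 0.06 between the dose effects (adjusted p = 0.0148), and was the 1 member of 9 called, where 0.119% of all genes were lower, 0.274% higher and 0.394% called. That call was lost without the second Poria library at 20 µg/mL, the first Atractylodis library at 20 µg/mL or the second at 500 µg/mL (-0.27 each, adjusted p = 0.0534 to 0.0663), and with only the libraries compared (-0.29, adjusted p = 0.0525). For Glycyrrhizae less Ginseng the VIL1 difference was also -0.28 ± 0.06 but had an adjusted p of 0.0647, and no member was called in edgeR, where 0.0477% of all genes were. In Angelicae less Paeoniae and Glycyrrhizae less Ginseng together, 3 of 18 member tests (16.7%) had an unadjusted p under 0.05 in edgeR, all in the latter. Of 16767 genes, 410 and 1047 had such a p in these comparisons, in that order. DESeq2 called 1 member, VIL1 for Glycyrrhizae less Ginseng (-0.27, adjusted p = 0.0119). With no filter ANXA13 passed there (-0.41, adjusted p = 0.0378). For ANXA13 the difference between dose effects was -0.34 ± 0.15 (Poria less Atractylodis) and -0.41 ± 0.14 (Glycyrrhizae less Ginseng), and for SLC6A20 -0.11 ± 0.13 and -0.33 ± 0.13, none past the threshold.

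**Figure D4:**
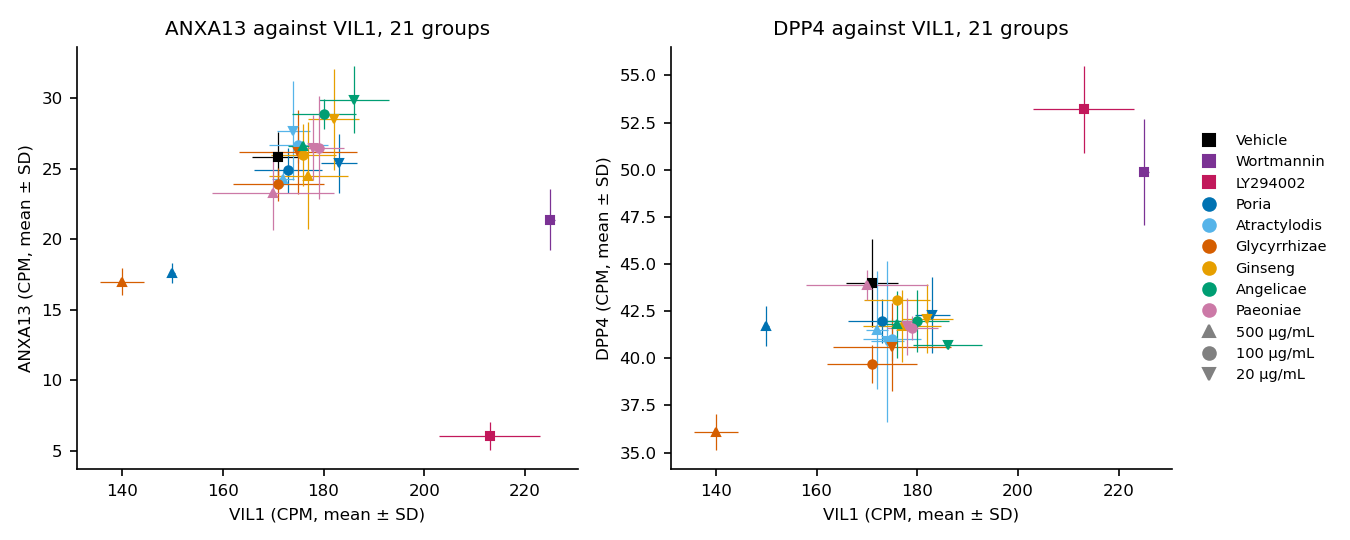
Group means with SD bars (CPM, axes not from 0) of ANXA13 (left) and DPP4 (right) against VIL1 over 21 groups, with colour for the treatment and marker shape for the extract dose. LY294002 has high VIL1 (213 CPM) with low ANXA13 (6.06 CPM), while Poria and Glycyrrhizae at 500 µg/mL have low values of both.

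The plot of members against VIL1 shows how the inhibitors and the extracts differed. Over the 19 groups without inhibitors, VIL1 and ANXA13 means varied together (Pearson r = 0.94 of log2 CPM over groups). With the inhibitors, r over 21 groups was -0.22. Without Poria and Glycyrrhizae at 500 µg/mL as well, r was 0.71 over 17 groups. VIL1 and DPP4 gave 0.82 over 21 groups, 0.58 over 19 and -0.1 over 17, so that their relation rests on the 4 groups left out. CDX2 and CDHR5 gave 0.85, 0.3 and 0.25. The 0.94 of VIL1 and ANXA13 was the highest of all member pairs over the 19 groups. KRT20 there gave -0.56 with VIL1, -0.54 with ANXA13 and -0.46 with DPP4, but 0.15 with CDHR5. The members thus did not move as a unit. These correlations are descriptions over groups that share a code set, and no test was made.

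Among 10648 other genes with a mean of at least 5 CPM, the gene whose group means were most like VIL1 was ATP6V1B1 (r = 0.973 over 21 groups, 0.948 over the 19 without inhibitors). For DPP4 it was SLC1A1 (0.956 and 0.872), for CDX2 EID1 (0.964 and 0.775) and for CDHR5 MAGED1 (0.959 and 0.806). For SLC6A20 it was STX3 (0.864 and 0.884), for KRT20 VAT1 (0.826 and 0.727), for MYO1A ST3GAL2 (0.778 and 0.752) and for ANPEP the pseudogene NUDT16L2P (0.68 and 0.661). The last 2 rest on members with few counts. Each r over 21 groups is the highest of 10648, so the search itself favours high values. How high the best r would be for unrelated profiles was not computed. The 19 groups are part of the 21, so the second r is no separate check.

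The rest of the microvillus machinery was read from a list of 20 structural genes, all of them tested. With LY294002, 6 were higher and 1 lower (median 0.08 against 0.01 over all genes), a share of calls below the 39.2% of all genes. MYO7B, the myosin of the tip-link complex, was higher by 0.68 ± 0.12 (adjusted p = 7.72e-06), and USH1C, its scaffold harmonin, by 0.38 ± 0.05 (adjusted p = 4.26e-08). With Poria at 500 against 20 µg/mL, 2 were lower and none higher, where 2.30% of all genes were lower: MYO7B (-0.53 ± 0.13, adjusted p = 0.0109) and ESPN (-0.66 ± 0.20). ESPN, an actin bundler at a mean of 1.87 CPM, was under the level set for naming genes and is named here after its value was seen. With Glycyrrhizae 3 were lower and none higher, where 2.02% of all genes were lower: MYO7B (-0.51 ± 0.14), USH1C (-0.28 ± 0.05) and CALML4 (-0.25 ± 0.05), a calmodulin-like partner of the tip-link complex named after its value was seen.

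The MYO7B calls were lost without the second Poria library at 20 µg/mL (-0.46), and with Glycyrrhizae without 5 of the 6 libraries in turn, all but the first at 500 µg/mL (-0.43 to -0.56). Both were lost with only the libraries compared (adjusted p = 0.0647 and 0.0643). Wortmannin gave 5 higher and none lower (median 0.06), where 6.26% of all genes were higher, and these genes, named after their values were seen, were PDZK1 (0.40), MYO1D (0.28), USH1C (0.23), CALML4 (0.21) and MYO6 (0.13).

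**Figure D5:**
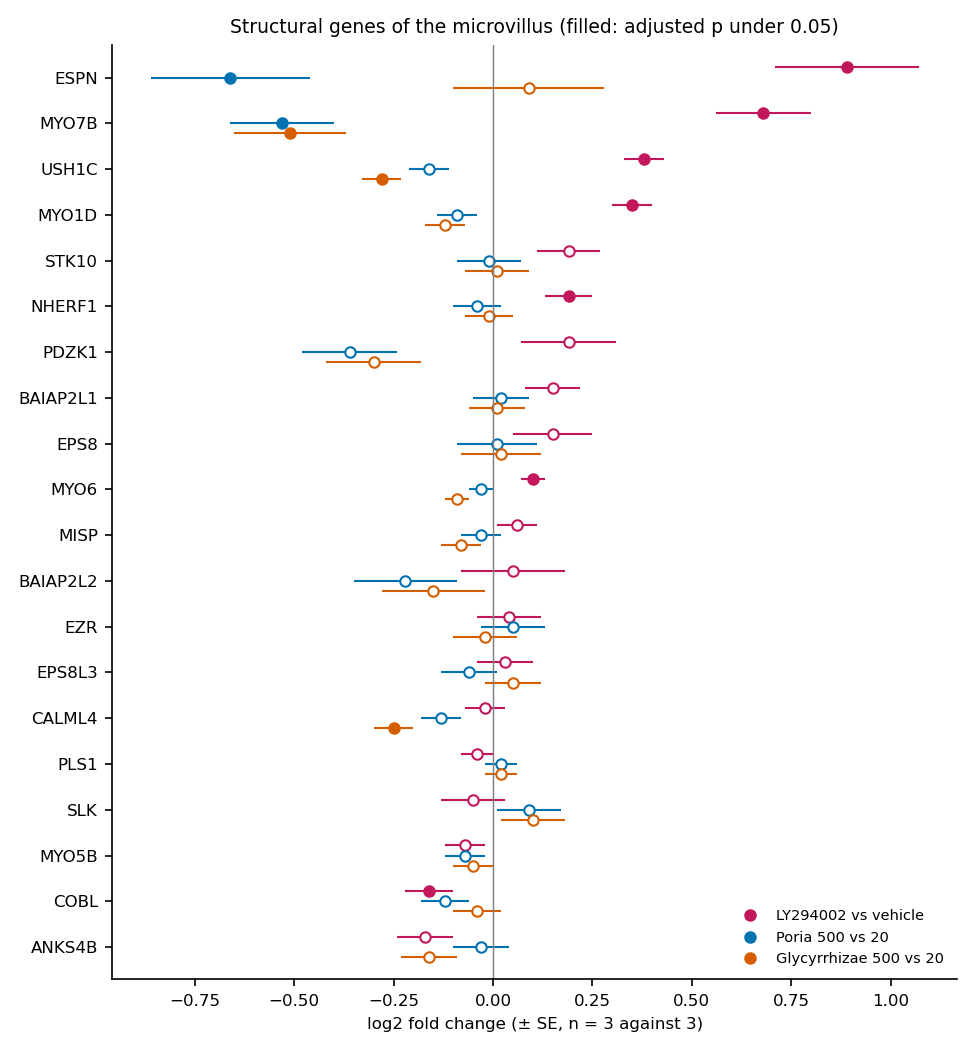
Log2 fold change (horizontal axis, points with SE bars, n = 3 against 3 libraries) of the 20 structural genes for LY294002 against vehicle and for Poria and Glycyrrhizae at 500 against 20 µg/mL, ordered by the LY294002 value, with filled points past the threshold. MYO7B lies at 0.68 with LY294002 and at -0.53 and -0.51 with the extracts, and most other genes lie near 0.

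In the plot of the structural genes, 13 of 20 were uncalled with LY294002, 18 with Poria and 17 with Glycyrrhizae. Bundlers and linkers such as EZR and PLS1 stayed uncalled in all 3 comparisons, with EZR at 0.04, 0.05 and -0.02 and PLS1 at -0.04, 0.02 and 0.02.

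Among the 14 tested absorptive enzymes and transporters, LY294002 gave 2 higher and 2 lower (median -0.24), wortmannin 2 higher (0.11), Poria at 500 against 20 µg/mL 1 lower (-0.30) and Glycyrrhizae 2 lower (-0.37). Over all genes, 39.2%, 13.7%, 5.51% and 3.85% were called in these 4 comparisons, so the LY294002 count lay below that background and the wortmannin count close to it. With each library left out in turn, the wortmannin count was 0 (without the first wortmannin library) or 1. SLC5A1, the sodium-glucose cotransporter, was higher by 0.37 ± 0.06 with LY294002 and lower with Poria (-0.42 ± 0.07) and Glycyrrhizae (-0.38 ± 0.07). SLC26A6, an anion exchanger, was also higher with LY294002 (0.37 ± 0.08), and CA2, a cytosolic carbonic anhydrase, was lower with Glycyrrhizae (-0.45 ± 0.10). The CA2 call was lost without the third Glycyrrhizae library at 500 µg/mL (-0.38) or at 20 µg/mL (-0.37). The 2 genes lower with LY294002, named after their values were seen, were the guanylin genes GUCA2A (-2.08 ± 0.29) and GUCA2B (-2.52 ± 0.65), ligands of guanylate cyclase C. Both were under the level set for naming genes, at means of 0.54 and 0.198 CPM. They had 4 to 22 and 0 to 15 counts per library, so these values rest on few counts. The summed level of this list was 57.1 ± 1.14 CPM in vehicle, 63.4 ± 3.53 CPM with LY294002, 50.2 ± 2.08 CPM with Poria and 50.6 ± 0.284 CPM with Glycyrrhizae at 500 µg/mL (SD, n = 3 each). At 20 µg/mL the sum was 58.3 ± 0.433 CPM with Poria, 62.3 ± 3.45 CPM with Glycyrrhizae and 63.4 ± 1.86 CPM with Ginseng. The LY294002 sum thus did not stand apart from the extracts, and it lay above vehicle although the median fold change was -0.24. Its largest parts are SLC26A6, SLC5A1, CA2 and GGT1, at 16, 14.2, 11.6 and 6.92 CPM over all libraries. The median counts each tested gene alike, whatever its level.

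Of 18 intestinal regulators, 14 were tested. LY294002 gave 3 lower and none higher (median -0.05), among them ONECUT2 (-0.44 ± 0.06) and the vitamin D receptor gene VDR (-0.41 ± 0.07), and wortmannin gave 2 lower (-0.09), where 20.5% and 7.46% of all genes were lower. HNF4A, a nuclear receptor that works with CDX2 on enterocyte genes, was lower with Poria (-0.15 ± 0.04, adjusted p = 0.0368) and with Glycyrrhizae (-0.25 ± 0.04, adjusted p = 0.000363) at 500 against 20 µg/mL. Poria gave 2 lower in all and Glycyrrhizae 1 (medians -0.15 and -0.04), where 2.30% and 2.02% of all genes were lower. The Poria call of HNF4A was lost without the second or the third library at either dose, with values from -0.11 to -0.16, and with no filter on low counts or only the libraries compared (-0.15 each).

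Markers of another intestinal cell type moved with several of these results. Of 7 tested goblet cell genes of 8, 5 were lower with LY294002 (median -0.54), 3 with Poria (-0.58) and 5 with Glycyrrhizae (-0.48) at 500 against 20 µg/mL, and 1 with wortmannin (median 0.21), with none higher. The shares of all genes lower in these comparisons were 20.5%, 2.30%, 2.02% and 7.46%. The Glycyrrhizae count was 1 to 4 with a library left out, and lowest without the third at 20 µg/mL. The wortmannin count was 0 without the second vehicle or the first wortmannin library. The secreted mucin gene MUC2 was lower with LY294002 (-0.72 ± 0.13) and Poria (-0.58 ± 0.13), and AGR2, a mucin-folding protein gene, with LY294002 (-0.61 ± 0.05). FCGBP, a mucus protein gene, was lower with Poria (-0.74 ± 0.13) and Glycyrrhizae (-0.60 ± 0.13), and SPDEF, a goblet cell factor, with Glycyrrhizae (-0.34 ± 0.09). The Glycyrrhizae calls were lost for FCGBP without the third library at 20 µg/mL (-0.48), and for SPDEF without the first at 20 µg/mL (-0.28) or the third at 500 µg/mL (-0.30). The summed goblet level ran from 330 to 337 CPM in vehicle, 219 to 231 CPM with LY294002, 286 to 331 CPM with wortmannin, 281 to 292 CPM with Poria and 262 to 274 CPM with Glycyrrhizae at 500 µg/mL. AGR2, at 237 CPM over all libraries, was the largest part of this sum. CLCA1, a goblet cell marker, had at most 3 counts in a library. The part of these genes in the results above was not tested.

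Simple epithelium genes, of which all 9 were tested, gave 6 higher and 2 lower with LY294002 (median 0.30), with KRT18 (0.51 ± 0.04) and TSPAN8 (0.51 ± 0.10) among those that were higher, where 18.7% of all genes were higher and 20.5% lower. Wortmannin gave 4 higher (0.11), against 6.26% of all genes. Poria gave 1 lower (-0.03) and Glycyrrhizae 2 lower (-0.03), against 2.30% and 2.02% of all genes, LGALS4 (-0.22 ± 0.05 with each extract) and TSPAN8 (-0.40 ± 0.10 with Glycyrrhizae). The summed level was 12500 ± 279 CPM in vehicle, 14200 ± 248 CPM with wortmannin and 16700 ± 1130 CPM with LY294002 (SD, n = 3 each). KRT8 and KRT18, at 6660 and 3970 CPM over all libraries, were the largest parts of this sum. LGALS4 lost its Poria call without the first library at 20 µg/mL (-0.18) or the third at 500 µg/mL (-0.19), and with only the libraries compared (-0.23). Its Glycyrrhizae call was lost without the second (-0.18) or the third (-0.21) library at 500 µg/mL or the third at 20 µg/mL (-0.18). TSPAN8 lost its call without the third library at 500 µg/mL (-0.36) or the second (-0.37) or the third (-0.32) at 20 µg/mL.

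Of 6 stem cell genes 4 were tested, and 2 were higher with each inhibitor (median 0.35 for each) and none with the extracts, where 18.7% (LY294002) and 6.26% (wortmannin) of all genes were higher. Of 10 enteroendocrine, tuft and Paneth cell genes 4 were tested, with 1 higher with each inhibitor, none with Poria and 1 lower with Glycyrrhizae. Over all genes, the same 18.7% and 6.26% were higher with the inhibitors, and 2.02% were lower with Glycyrrhizae. Of the 5 tested markers of fibroblasts, leukocytes and endothelium, 2 were lower with LY294002, among them CD68 (-0.82 ± 0.18), 1 was higher with wortmannin, and none was called with the extracts. Of all genes, 20.5% were lower with LY294002 and 6.26% higher with wortmannin. The summed level of this list ran from 13.9 to 16.4 CPM in vehicle and from 9.98 to 12.1 CPM with LY294002.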

How the data were processed

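Reads were processed by the authors with, per the submitters' processing notes, FastQC 0.11.9, Trim Galore 0.6.5, STAR 2.7.3a and RSEM 1.3.3 on GRCh38 (hg38). Libraries were made with a directional kit from 1 µg of RNA with a RIN over 7 and read as 100 bp pairs, per the labels. The deposited table holds unnormalised expected counts from RSEM for each Ensembl gene, of which 24.2% of the nonzero values were not whole. The sources used here give neither the annotation release nor the strand setting. Columns were matched to samples by the codes in the labels, and 213 other columns of the table were not used here.

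Expected counts were rounded and filtered with filterByExpr of edgeR 4.0.16 in R 4.3.3 (minimum count 10, minimum total count 15), which left 16767 of 60675 genes. After TMM scaling, 1 quasi-likelihood model of the 21 group means took in all 60 libraries (39 residual degrees of freedom, biological coefficient of variation 0.057), with 33 comparisons. SEs are those the F statistic implies, and 95% intervals follow from them. The test was also run on simulated counts with known changes. Alternatives were DESeq2 1.42.0, DESeq2 size factors in edgeR, no filter, only the libraries compared, the replicate number as a block over all 60 libraries, and each library left out. Where that leaves a Paeoniae group with 1 library, it is assumed to vary like the other groups. Symbols and coordinates came from GENCODE 29 (GRCh38) by Ensembl identifier, and 16543 of the 16767 genes tested had a symbol. Overlapping genes were read from the same annotation, and promoters from RefSeq.

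Members and lists were chosen with earlier results of these data known. Named were members past the threshold, and of each other list the 2 genes with the largest called change at a mean of at least 5 CPM, with LY294002 and in the extract at 500 against 20 µg/mL with the most member calls. Poria and Glycyrrhizae tied at 3, so both were used. Some genes that these rules name are not reported here. Replicates with the same number deviated together, at a correlation over 0.1 in every pair, in 3 of the 30 comparisons that set 1 group against another: wortmannin with vehicle (0.181 to 0.561), Ginseng 500 with 20 (0.176 to 0.39) and Poria with Atractylodis at 500 µg/mL (0.283 to 0.604). In 57 replicate pairs the chi-square per gene was at least 2.48, so no pair looked like 1 library counted again.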

Additional observations from a re-analysis of the deposited data

Results flagged for a closer look

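The dose effect of Poria on VIL1, 500 against 20 µg/mL, differed from that of Atractylodis by -0.28 on the log2 scale, by a test of the difference itself (edgeR quasi-likelihood test, SE 0.06, adjusted p = 0.0148). VIL1 went from 183 ± 3.55 to 150 ± 0.56 CPM with Poria and from 174 ± 3.27 to 172 ± 2.2 CPM with Atractylodis (SD, n = 3 each). The libraries of both extracts share a code set and vehicle plays no part in this value. It stayed between -0.27 and -0.30 with each of 12 libraries left out in turn, but its adjusted p rose to as much as 0.0663.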

How the results depend on the processing

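Of 31 member results past the threshold, 346 alternative values kept the direction, 310 with the call and 36 without it, 25 of these among 192 values with a library left out. Only some of the results that gave no call were followed in this way. They were those of the inhibitor comparisons and of Poria and Glycyrrhizae at 500 µg/mL against vehicle and 20 µg/mL. VIL1, ANXA13 and SLC6A20 for Glycyrrhizae less Ginseng were added. Of these 43 member results, 14 of 474 alternative values passed. Not among them are KRT20 for Atractylodis 500 against 20 and SLC6A20 for Glycyrrhizae at 100 µg/mL, which also passed under another setting. Member calls for wortmannin against vehicle (2) numbered 4 with the replicate block and 1 to 3 with a library left out. For extracts of a code set at 500 µg/mL (6) there were 3 with only the libraries compared. For the dose effect between extracts of a code set (1) there were 2 without a filter, 2 with the replicate block, 2 with DESeq2, 0 with only the libraries compared and 0 to 2 with a library left out. Outside pairings that met the rule, the replicate block added KRT20 with Glycyrrhizae at 500 µg/mL against vehicle (0.16, adjusted p = 0.0381; 0.18 without a filter), KRT20 between the inhibitors (-0.15), VIL1 for Glycyrrhizae less Ginseng (-0.28) and SLC6A20 for Glycyrrhizae at 100 µg/mL against vehicle (-0.35). It removed no member call. With only the libraries compared, 8 member calls were lost: VIL1 with Poria against vehicle (-0.19), against Atractylodis (-0.21) and in the dose effect (-0.29), SLC6A20 with Ginseng against vehicle (-0.49), Poria 500 against 20 (-0.36) and Glycyrrhizae against Ginseng (-0.37), and DPP4 with wortmannin (0.19) and Glycyrrhizae against Ginseng (-0.21). With no filter 3 were lost: SLC6A20 (-0.37) and DPP4 (-0.21) for Glycyrrhizae against Ginseng, and DPP4 with wortmannin (0.19). CDHR5 (0.30) and ANXA13 (-0.27) with wortmannin passed with no filter, and CDHR5 also with only the libraries compared.

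Results that changed sign had no call and did so with 1 library left out. MYO1A with wortmannin (-0.03) became 0.14 and 0 without vehicle 1 and 2 and 0.01 without wortmannin 2. MYO1A with Poria at 500 µg/mL against vehicle (0.01) became -0.17 without vehicle 3 and -0.08 and -0.01 without Poria 2 and 3. SLC6A20 between the inhibitors (-0.04) became 0.05 without LY294002 2. ANPEP with Glycyrrhizae at 500 µg/mL lay from 0 to 0.34 against vehicle (0.13) and from -0.33 to 0.01 against 20 µg/mL (-0.19). At 500 against 20 µg/mL, KRT20 with Poria (-0.01) lay from -0.06 to 0.06, with 0.03 and 0.01 also above 0, DPP4 with Poria (-0.02) from -0.06 to 0.01, and CDHR5 with Glycyrrhizae (0.02) from -0.10 to 0.13, with -0.02 and -0.04 also below 0. The cause was not tested.

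Counts over all genes also moved. With only the libraries compared, fewer residual degrees of freedom were left, and over the alternatives the count ran from 1249 to 2772 for wortmannin against vehicle (2300), from 1377 to 4222 between the inhibitors (3718), from 193 to 1288 for Poria 500 against 20 (924) and from 398 to 954 for Glycyrrhizae 500 against 20 (645). Small counts moved most: the 15 comparisons of an extract with vehicle without a member call (0 to 62 genes) gave 98 to 1141 with no filter. Over all alternatives, left-out libraries included, Poria 500 against 20 gave 0 to 4 calls among structural genes (2), 0 to 3 among regulators (2) and 0 to 1 among simple epithelium genes (1). Glycyrrhizae gave 1 to 6 among goblet (5), 0 to 2 among simple epithelium (2) and 0 to 1 among enteroendocrine, tuft and Paneth genes (1). Wortmannin gave 3 to 6 among structural (5), 0 to 2 among absorptive (2), 1 to 2 among regulator (2), 2 to 4 among simple epithelium (4), 0 to 2 among goblet (1) and 0 to 1 among enteroendocrine genes (1). LY294002 gave 1 to 4 among stem cell genes (2) and 2 to 4 among fibroblast, leukocyte and endothelium genes (2). Depth limits ANPEP, MYO1A and CDHR2 most.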

Other observations

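Within extract groups, the libraries numbered 1 stood apart in 3 members. KRT20 was highest in replicate 1 in 18 of 18 extract groups, as were 0.918% of the genes tested. ANXA13 was lowest there in 15 and highest in 0 of 18, as often or more so in 1.68% of the genes tested. VIL1 was lowest in 14 and highest in 1, as often or more so in 3.72%. In vehicle the order was another: replicate 1 held 310 CPM of KRT20 against 319 and 276 CPM, and the highest ANXA13, 27.8 CPM against 24.7 and 24.8 CPM. What a replicate number shares across groups is not stated, and its part in the results was not tested beyond the block.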
